A study of Mus musculus with 6 samples.

Results

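The miR-26 family of microRNAs was described in cultured mouse epicardial cells with and without targeting of the histone deacetylase gene Hdac3. Members were all rows of the deposited count table named miR-26a, miR-26a-1, miR-26a-2 or miR-26b, with or without an arm suffix, which gave 5 of 1028 rows: miR-26a-5p, miR-26b-5p, miR-26a-1-3p, miR-26a-2-3p and miR-26b-3p. They were chosen by name, not by value. Small RNA was sequenced from an epicardial cell line, labelled MCEC, in 3 libraries after transduction with an empty-vector lentivirus (EV) and in 3 after transduction with a lentivirus carrying an Hdac3 guide RNA for CRISPR/Cas9 knockout (KO). Epicardial cells cover the heart and signal to the muscle beneath, and the study asked which microRNAs lie between Hdac3 and growth of that muscle. The labels do not say whether the replicates were separate cultures, whether clones were picked, or how many cells were edited, and the spread behind each p-value may therefore be technical. Small-RNA reads do not measure the Hdac3 mRNA, and the knockout was not checked here.

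MicroRNAs are cut from a hairpin as a duplex of a 5p and a 3p arm, of which usually 1 is loaded into an Argonaute protein and guides it to messenger RNAs that match its seed, the bases near its 5′ end. The miR-26 genes lie in introns of the Ctdsp genes, which encode small phosphatases that act on the RNA polymerase II tail and on Smad and Rb proteins. miR-26 is known to restrain cell-cycle entry through G1 cyclins and Cdk6, to repress the histone methyltransferase Ezh2, and in heart and vessel cells to act on Gata4 and Smad1. Chromatin regulators such as Hdac3 can act on host genes. Whether Hdac3 acts on the Ctdsp genes was not tested, as host mRNAs were not measured in these libraries.

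The mature sequences show which reads can and cannot be told apart, and are printed for that reason. All 5 members were matched by name to RefSeq microRNAs (build GRCm38.p6). In each sequence the seed, bases 2 to 8, is in capitals.
miR-26a-5p: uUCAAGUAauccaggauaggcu
miR-26b-5p: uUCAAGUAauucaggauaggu
miR-26a-1-3p: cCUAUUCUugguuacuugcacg
miR-26a-2-3p: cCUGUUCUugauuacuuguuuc
miR-26b-3p: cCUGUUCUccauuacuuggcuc
The seed UCAAGUA was found in 2 of the 1679 mature names of the RefSeq table, miR-26a-5p and miR-26b-5p. Counted from the 5′ end of miR-26a-5p, they differ by C11U and C21U, and miR-26b-5p is 21 bases long against 22. The 3p arms fall into different seed groups. miR-26a-2-3p and miR-26b-3p share CUGUUCU with miR-6932-3p and miR-7039-3p, whereas miR-26a-1-3p was the only mature name with CUAUUCU. miR-26a-1-3p differs from miR-26a-2-3p by A4G, G11A, C19U, A20U, C21U and G22C, counted from its 5′ end, so reads of these arms can be told apart.

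The hairpins are shown with both arms in capitals, because miR-26a-5p comes from 2 of them.
Mir26a-1: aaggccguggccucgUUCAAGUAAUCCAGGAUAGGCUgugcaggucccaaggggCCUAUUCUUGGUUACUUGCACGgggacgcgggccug
Mir26a-2: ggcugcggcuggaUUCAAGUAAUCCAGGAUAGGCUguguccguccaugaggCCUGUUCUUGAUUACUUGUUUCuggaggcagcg
Mir26b: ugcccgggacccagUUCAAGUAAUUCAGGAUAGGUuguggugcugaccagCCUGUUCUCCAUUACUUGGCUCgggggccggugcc
All 3 lie on the plus strand, in the sense of their hosts. Mir26a-1 (chr9:119031796-119031885) sits in intron 5 of Ctdspl, 1543 bp from the exon before it. Mir26a-2 (chr10:126995530-126995613) sits in intron 5 of Ctdsp2, 241 bp before the next exon, and 2 further Ctdsp2 transcripts have an exon that starts at its last base. Mir26b (chr1:74394310-74394394) sits in intron 4 of Ctdsp1, which is only 564 bp long. The intron numbers are those of the GENCODE M21 principal transcripts. For Ctdsp2 and for Ctdsp1 the hairpin lies in an intron of 1 of 2 coding transcripts. From the first base of miR-26a-5p the Mir26a-1 and Mir26a-2 hairpins are identical for 25 bases, 3 more than the mature microRNA, so a full-length 5p read cannot be given to 1 of them. Only the 3p arms mark the locus.

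Of the members, miR-26a-5p, the main product of the Mir26a-1 and Mir26a-2 genes, was by far the most abundant. It took between 94.4% and 95.05% of the family's reads in every library and ranked 12 among all 1028 microRNAs by mean level. Levels are given in CPM, reads per 1000000 after each library's total was multiplied by its TMM factor, a scaling that balances the libraries on most of their microRNAs. Libraries are given in replicate order from here on. miR-26a-5p measured 5537, 6251 and 6472 CPM in the EV libraries and 7301, 7520 and 6765 CPM in the KO libraries. All 3 KO values lay above all 3 EV values, which was so for 15.2% of the 460 microRNAs that passed the low-count filter (29.1% had groups apart in either direction). The means were 6087 ± 488 CPM in EV and 7195 ± 388 CPM in KO (SD, n = 3 each), a 1.18-fold difference (log2 0.24, SE 0.09, 95% interval 0.05 to 0.44). edgeR's quasi-likelihood test did not call it (unadjusted p = 0.0207, Benjamini-Hochberg adjusted p = 0.132 over 460 microRNAs).

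miR-26b-5p, the product of the Ctdsp1 intron with the same seed, lay far lower. It measured 285, 367 and 329 CPM in the EV libraries and 398, 391 and 366 CPM in the KO libraries. EV 2 and KO 3 met at nearly the same value, so the groups overlapped. The means were 327 ± 41.0 CPM in EV and 385 ± 16.6 CPM in KO (SD, n = 3 each), a 1.18-fold difference (log2 0.24, SE 0.10, 95% interval 0.02 to 0.45; edgeR unadjusted p = 0.0331, adjusted p = 0.184). It ranked 66 among all microRNAs.

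The 3p arms were rare. miR-26a-2-3p, the passenger arm of the Ctdsp2 hairpin, had 88, 71 and 78 reads in the EV libraries and 98, 107 and 68 in the KO libraries. In CPM these were 6.12 ± 0.734 in EV and 7.35 ± 1.57 in KO (SD, n = 3 each), a log2 difference of 0.27 (SE 0.19, edgeR adjusted p = 0.439), with KO 3 the lowest of all 6 libraries. The log2 difference was 0.15 without KO 2 and 0.43 without KO 3. miR-26b-3p had 14, 8 and 12 reads in EV and 15, 19 and 10 in KO (log2 0.44, SE 0.39, edgeR adjusted p = 0.531). Its log2 difference was 0.23 without KO 2 and 0.25 without EV 2. Its groups overlapped too, and its 95% interval, -0.44 to 1.32, holds both a fall and a rise of the size seen for called microRNAs.

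miR-26a-1-3p, the passenger arm of the Ctdspl hairpin, had the fewest reads and did not pass the filter. It had 8, 14 and 4 reads in the EV libraries and 5, 2 and 3 in the KO libraries. KO 1 exceeded EV 3, so the groups overlapped. Its sums were 26 reads in EV and 10 in KO, at 0.670 ± 0.417 and 0.270 ± 0.125 CPM (SD, n = 3 each). When every microRNA was tested without a filter, its log2 change was -1.30 (SE 0.68, edgeR unadjusted p = 0.0564, adjusted p = 0.349), the only member with a value below 0.

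**Figure D1:**
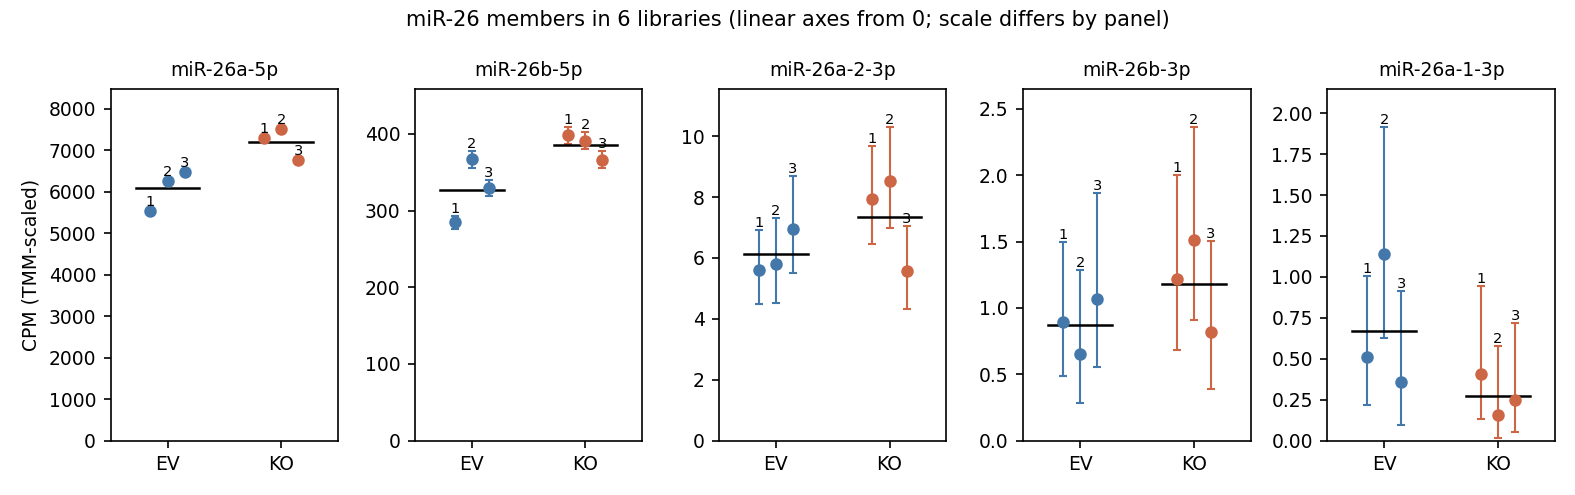
Level of each miR-26 member in CPM (linear axes from 0, with a different scale in each panel) in the 3 EV and 3 KO libraries. Points are libraries marked by replicate number, vertical bars are exact Poisson 95% intervals (counting error only), and horizontal lines are group means; miR-26a-5p is the only member whose KO values all lie above its EV values.

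Thus 4 of 5 members were tested and edgeR called 0 of them, while 2, miR-26a-5p and miR-26b-5p, had an unadjusted p under 0.05. DESeq2 with its default trend called 0 of the 3 members to which it gave an adjusted p, which left out miR-26b-3p. limma-voom called 0 of 4. Across all tested microRNAs edgeR called 7.61%, 23 higher and 12 lower in KO, DESeq2 11.3% and limma-voom 8.26%. By unadjusted p miR-26a-5p ranked 72 and miR-26b-5p ranked 83 of 460. By size of change they ranked only 205 and 209, and the standard error was smaller for just 11.7% and 16.1% of tested microRNAs. These were therefore small changes measured with comparatively small errors, which the plot of change against level shows.

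**Figure D2:**
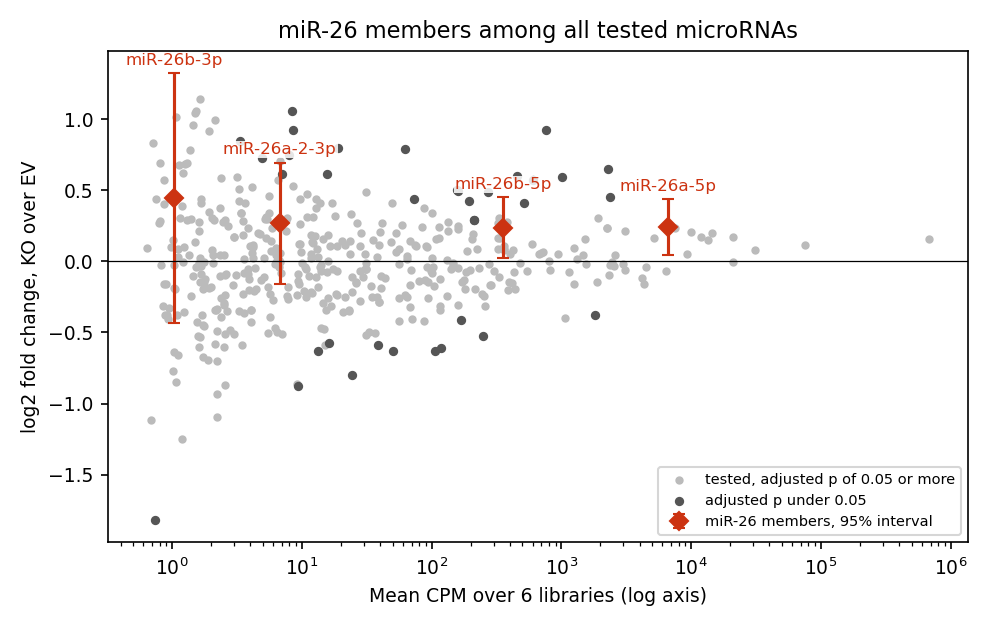
log2 fold change of KO over EV against mean CPM (log axis) for the 460 tested microRNAs, with called microRNAs in dark grey and the 4 tested miR-26 members as red diamonds with 95% intervals. miR-26a-5p and miR-26b-5p sit at the same log2 change of 0.24 at levels of 6641 and 356 CPM, and the 3p arms have intervals that span 0.

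The authors' deposited table does list miR-26a-5p. That table gives group means of 89768 normalized counts in KO and 76869 in EV, a log2 change of 0.22, p = 0.00490 and an adjusted p of 0.0327 from the authors' own test. By p it stands at place 69 of the 78 microRNAs in the authors' deposited table, and none of the other 4 members is in it. DESeq2 run here gave the same size of change, 0.22 (SE 0.09), with an adjusted p of 0.0997 under its default dispersion trend and 0.0104 under a local trend. The size of the change was alike in these fits, and the call differed between the dispersion trends.

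The size of the change also depended on the scaling between libraries. As a share of all reads, miR-26a-5p was 0.679%, 0.648% and 0.595% in the EV libraries and 0.671%, 0.741% and 0.639% in the KO libraries, so the groups overlapped. miR-21a-5p alone took between 63.0% and 70.1% of each library. As a share of the reads outside miR-21a-5p, miR-26a-5p was 1.83%, 2.01% and 1.99% in EV and 2.19%, 2.22% and 2.04% in KO, and the groups were apart, although EV 2 and KO 3 were close. With library size alone the log2 change was 0.09 (SE 0.10, edgeR adjusted p = 0.628) for miR-26a-5p and 0.09 (SE 0.11, edgeR adjusted p = 0.689) for miR-26b-5p. That scaling moved the median of all tested microRNAs from -0.01 to -0.16. Relative to that median, miR-26a-5p stood 0.25 higher with TMM and 0.26 higher with library size alone, and miR-26b-5p stood 0.25 higher with both. A change of scaling shifts the log2 changes of all microRNAs nearly alike, so this distance could hardly differ and does not test the rise. Library sizes without miR-21a-5p gave log2 changes of 0.15 (edgeR adjusted p = 0.244) and 0.14 (edgeR adjusted p = 0.353), with that median at -0.11.

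EV 1 weighed most among the libraries: it had the lowest miR-26a-5p and miR-26b-5p levels in CPM. Its TMM factor, by which CPM is divided, was the largest, 1.23 against 0.919 to 1.04 elsewhere. As a share of all reads, EV 1 had the most miR-26a-5p of the EV libraries (0.679%), and as a share outside miR-21a-5p the least (1.83%). Without EV 1 the log2 changes were 0.18 (SE 0.07, edgeR adjusted p = 0.212) for miR-26a-5p and 0.15 (SE 0.08, edgeR adjusted p = 0.311) for miR-26b-5p, the latter smaller by over 1.5 times.

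**Figure D3:**
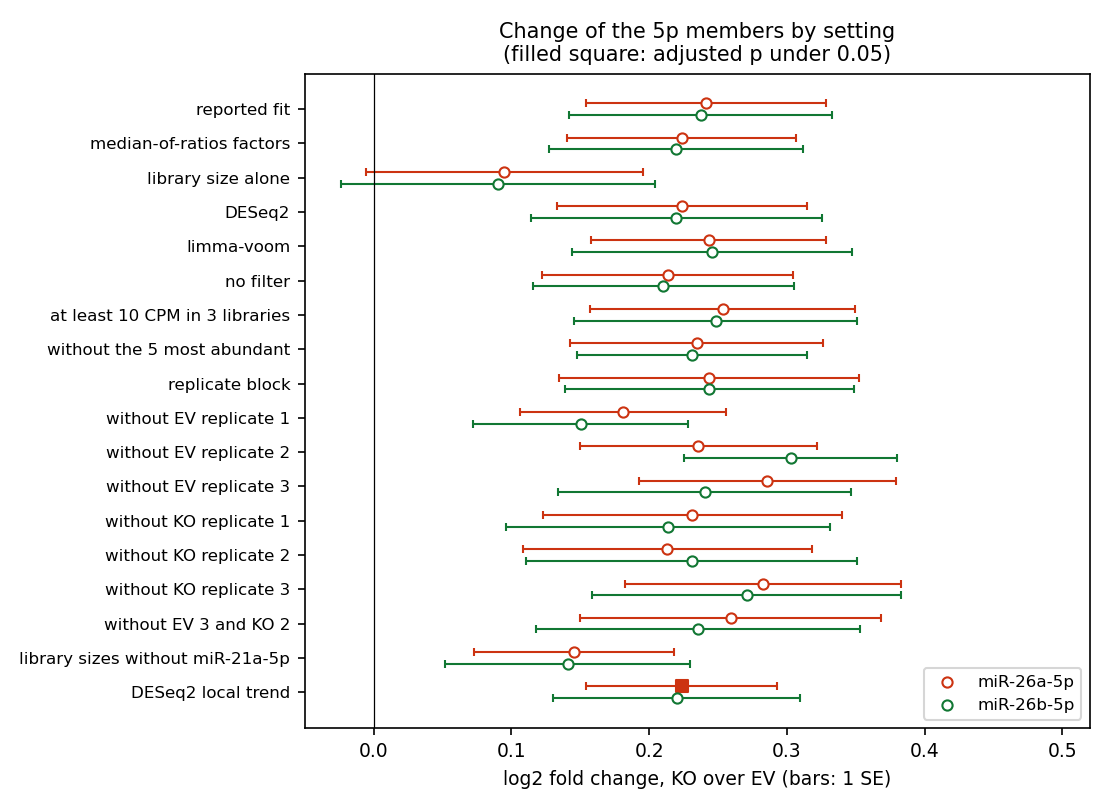
log2 fold change of KO over EV (bars: 1 SE) for miR-26a-5p in red and miR-26b-5p in green under the reported fit and 17 other settings. All values lie above 0, the lowest with library size alone, and only miR-26a-5p under DESeq2 with a local trend (filled square) has an adjusted p under 0.05.

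The proportion of miR-26b-5p to miR-26a-5p had the same mean in both groups and varied between libraries. For each read of miR-26a-5p there were 0.0514, 0.0587 and 0.0508 reads of miR-26b-5p in the EV libraries and 0.0545, 0.0520 and 0.0542 in the KO libraries. The means were 0.0536 ± 0.00435 in EV and 0.0536 ± 0.00136 in KO (SD, n = 3 each), and EV 2 stood highest. miR-26b-5p made up 5.54% of the reads of both in EV 2 (Wilson 95% interval 5.38 to 5.70) and 4.84% in EV 3 (4.69 to 4.99), so libraries of 1 group differed beyond counting error. This ratio is taken within a library and does not depend on the scaling. On the log2 scale it differed by 0.00069 between KO and EV (exact permutation test, two-sided, p = 1, adjusted p = 1 over 4 ratios). With 3 libraries against 3 the smallest p is 0.1, so none of the 4 ratios could reach 0.05.

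The 5p arm dominated all 3 hairpins. miR-26a-2-3p made up 0.101%, 0.0926% and 0.107% of its reads plus those of miR-26a-5p in the EV libraries and 0.109%, 0.113% and 0.0822% in the KO libraries. miR-26b-3p made up between 0.178% and 0.386% of the reads of its hairpin. miR-26a-1-3p made up between 0.00212% (KO 2, 2 reads, Wilson 95% interval 0.000582 to 0.00773) and 0.0183% (EV 2, 14 reads, 0.0109 to 0.0307) of its reads plus those of miR-26a-5p. Since miR-26a-5p is shared, the shares of both miR-26a hairpins are lower bounds on the 3p share of a locus. The intervals cover counting error only, and PCR copies were counted as reads.

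**Figure D4:**
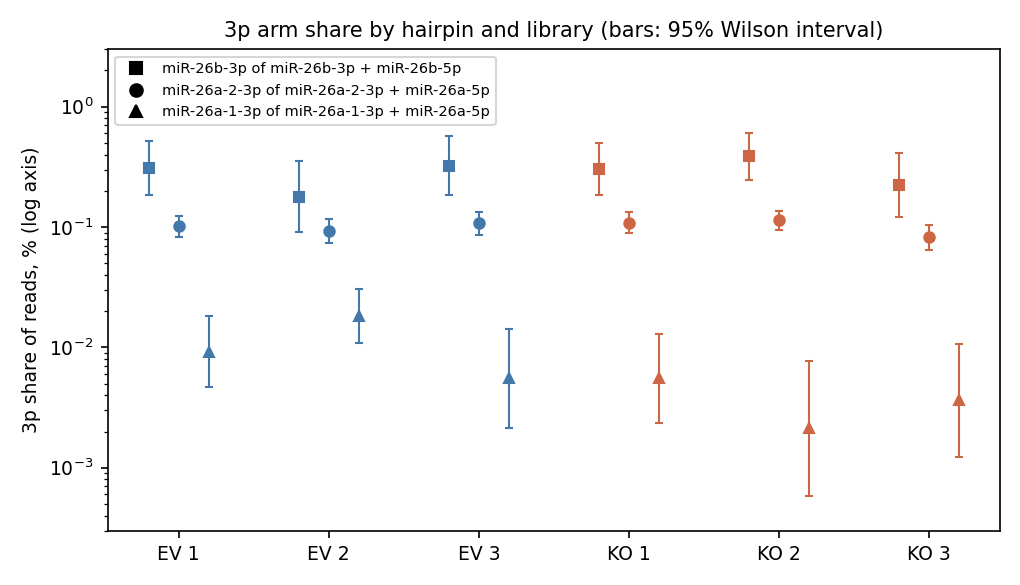
Share of 3p reads in percent (log axis) for each miR-26 hairpin in the 3 EV (blue) and 3 KO (orange) libraries, with 95% Wilson intervals. In every library miR-26b-3p had the largest share and miR-26a-1-3p the smallest, and for miR-26b and miR-26a-2 the EV and KO intervals overlap.

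Arm ratios were compared between KO and EV with limma over the 159 hairpins whose arms both passed the filter, 2 of them of this family. The log2 ratio of 5p to 3p reads of miR-26a-2 was 9.95 in EV and 9.95 in KO, a change of -0.00258 (SE 0.17, 95% interval -0.41 to 0.40, limma adjusted p = 0.995). That of miR-26b was 8.51 in EV and 8.34 in KO, a change of -0.17 (SE 0.29, 95% interval -0.86 to 0.53, limma adjusted p = 0.992). Neither was called, and limma called 0% of all 159 hairpins, with 9 at an unadjusted p under 0.05. limma's diffSplice on voom values also called neither. By level, miR-26a-2 ranked 6 and miR-26b ranked 14 of 159 for excess of the 5p arm, where the median hairpin had a log2 ratio of 1.32. Since miR-26a-5p is shared, the miR-26a-2 ratio is an upper bound for that hairpin. Its rank may be too high, and its change can mix both miR-26a loci. The miR-26a-1 hairpin was not tested, as its 3p arm failed the filter.

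Reads that mark a miR-26a locus came mostly from the Ctdsp2 hairpin. miR-26a-1-3p made up 8.33%, 16.5% and 4.88% of the reads of both miR-26a 3p arms in the EV libraries and 4.85%, 1.83% and 4.23% in the KO libraries. The highest Wilson 95% upper bound was 25.8%, in EV 2. KO values were all lower, but EV 3 and KO 1 were almost equal. The log2 ratio of miR-26a-1-3p to miR-26a-2-3p was -3.27 ± 0.92 in EV and -4.63 ± 0.70 in KO (SD, n = 3 each), a difference of -1.36 (exact permutation test, two-sided, p = 0.1, the smallest possible, adjusted p = 0.2). Without EV 2 the difference was -0.87, and without KO 2 it was -0.96. The log2 ratio of miR-26b-3p to miR-26a-1-3p differed by 1.52 (exact permutation p = 0.1, adjusted p = 0.2), with EV 3 and KO 1 tied at 3 reads to 1 before the pseudocount of 0.5, and that difference was 0.89 without EV 2 and 1.05 without KO 2. The log2 ratio of miR-26b-3p to miR-26a-2-3p differed by 0.17 (exact permutation p = 0.6, adjusted p = 0.8). Both of the larger differences rest on the 10 KO reads of miR-26a-1-3p. Passenger arms are degraded to different extents, so these shares do not give the part of miR-26a-5p that each locus made.

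Markers of other cells were read beside these levels. Of 2 red blood cell microRNAs, 1, miR-451a, had reads in every library. Their summed level was 54.7 CPM in EV 3 and 62.7 CPM in KO 2 against 0.243 to 2.53 elsewhere. The other, miR-144-3p, had 0 reads in EV 3 and in KO 2, so the high values there are miR-451a alone. Within each group, EV 3 and KO 2 were also the libraries with the most miR-26a-5p in CPM. This held on that scale only. As a share of all reads, miR-26a-5p was lowest of all 6 libraries in EV 3 (0.595%) and highest in KO 2 (0.741%). Without EV 3 and KO 2, the log2 change of miR-26a-5p was 0.26 (SE 0.11, edgeR adjusted p = 0.101) and that of miR-26b-5p 0.24 (SE 0.12, edgeR adjusted p = 0.187). That fit left 2 libraries in each group, and the part of the miR-451a signal in the miR-26 values was not tested. The 3 white blood cell microRNAs summed to at most 0.735 CPM, and none had reads in every library. The 2 endothelial microRNAs ranged from 36.6 to 42.1 CPM in EV and from 34.7 to 35.4 in KO, and the 2 neural ones from 11.3 to 52.1 and from 15.2 to 57.8, again highest in EV 3 and KO 2. The summed level of the 3 epithelial miR-200 microRNAs moved with the groups, from 39.6 to 47.3 CPM in EV and from 24.1 to 25.9 in KO. edgeR called miR-200a-3p (log2 -0.88, SE 0.15, adjusted p = 0.00898) and miR-200b-3p (log2 -0.80, SE 0.13, adjusted p = 0.00777) lower in KO, and both had their groups apart. Of the 460 tested microRNAs, edgeR called 7.61% in either direction and 29.1% had their groups apart. The groups overlapped for the rare miR-200c-3p (log2 -0.33, SE 0.39, edgeR adjusted p = 0.645). The part of these microRNAs in the miR-26 values was not tested. The 5 mesenchymal microRNAs summed to between 589456 CPM (EV 1) and 837452 CPM (EV 3). Most of each sum was miR-21a-5p, at 513964 CPM in EV 1 and 763066 CPM in EV 3, which led every library. Far lower were miR-145a-5p and miR-214-3p, at 279 and 538 CPM in EV 1. No marker was at 0 in all 6 libraries. In bulk RNA, fewer cells that make a microRNA and less of it per cell cannot be told apart.

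In the order of levels miR-26a-5p stood between let-7f-5p, a growth-restraining let-7 member, at 7475 CPM and miR-99b-5p at 6351 CPM. Their ranges over the 6 libraries, 5877 to 8228 and 5689 to 7561 CPM, overlapped that of miR-26a-5p, 5537 to 7520 CPM. miR-26b-5p stood between miR-374c-3p at 360 CPM and miR-23b-3p at 354 CPM, also with overlapping ranges. Ligation favours some microRNAs over others, so the order describes these libraries only.

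The microRNAs whose pattern over the 6 libraries was most like that of miR-26a-5p were sought among 119 others with at least 100 CPM. Likeness was the root mean square distance between centred log2 levels, which had a median of 0.18. The closest were miR-29a-3p, known to repress collagens, at a distance of 0.037, then let-7f-5p at 0.055, miR-125b-5p at 0.076, miR-28a-5p at 0.077 and miR-23b-3p at 0.080. miR-26b-5p, at 0.070, would have taken place 3. The log2 changes of these 5 others lay between 0.16 (SE 0.09, miR-28a-5p) and 0.27 (SE 0.08, miR-29a-3p), and edgeR called none of them (adjusted p between 0.0672 and 0.341). Likeness was measured over the same EV and KO libraries, so the choice itself favours changes near that of miR-26a-5p. In other settings the calls varied. miR-29a-3p was called in 5 of 17, among them without EV 3 (0.32, edgeR adjusted p = 0.0342) and without EV 3 and KO 2 (0.32, edgeR adjusted p = 0.0368). let-7f-5p was called in 2 of 17, without EV 3 and KO 2 (0.31, edgeR adjusted p = 0.0458) and with DESeq2 and a local trend. miR-125b-5p and miR-23b-3p were called in 1 each, with the local trend, and miR-28a-5p in 0.

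MicroRNAs that share a known role with miR-26 were set beside it as lists. Of 19 tested microRNAs known to restrain G1 cyclins and Cdk4/6, 5 rose in KO, 0 fell and 14 were not called by edgeR, with a median log2 change of 0.08. Over all tested microRNAs the median was -0.01 and 5% were called higher. The 5 were miR-322-5p at 0.92 (SE 0.07), miR-503-5p at 0.60 (SE 0.07), miR-34a-5p at 0.79 (SE 0.10), miR-34b-5p at 0.92 (SE 0.18) and miR-34c-5p at 0.65 (SE 0.08), against 0.24 for miR-26a-5p. None of the 9 let-7 and miR-98 members was called, with let-7f-5p the highest at 0.23 (SE 0.10). With library size alone 1 of the 19 was called. Of the Ezh2-repressing microRNAs, 1 of 4 tested rose, miR-101a-3p, by 0.57 on the log2 scale (SE 0.08, edgeR adjusted p = 0.00442), and the list median was -0.09. With library size alone miR-101a-3p was not called (0.41, edgeR adjusted p = 0.144).

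miR-103 and miR-107, which like miR-26 lie in introns of paralogous genes, the Pank genes of coenzyme A synthesis, offered the nearest match in gene layout. Of their 4 deposited arms, 2 passed the filter and edgeR called neither, with 0 at an unadjusted p under 0.05. miR-103-3p was at 482 ± 59.1 CPM in EV and 479 ± 12.5 CPM in KO (SD, n = 3 each), a log2 difference of -0.01 (SE 0.09, edgeR adjusted p = 0.970). Its sign varied with the setting, up to 0.11 without EV 3 and KO 2. miR-107-3p was at 17.1 ± 0.497 CPM in EV and 14.3 ± 0.460 CPM in KO (SD, n = 3 each), a log2 difference of -0.26 (SE 0.13, edgeR unadjusted p = 0.0702, adjusted p = 0.254), and its KO values all lay below its EV values. The miR-26 and miR-103 changes were not tested against each other.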

How the data were processed

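Per the labels' protocols, Trizol RNA went into NEBNext small-RNA libraries with ligated adaptors and gel selection. The deposited table holds the authors' whole-number read counts per mature microRNA and TPM values, which equal counts scaled to 1000000 per library. The authors' deposited comparison table gives group means (a normalized signal), a log2 fold change, and p-values with adjusted p-values. Per the submitters' processing notes, Bowtie, mm10 and DESeq 1.8.3 were used, whereas the series' design text names DESeq2, so which of them gave the authors' adjusted p-values is not settled here. The miRBase release and the handling of reads matching several microRNAs are not given in the sources used here. Totals were 11824881 to 13412774 counts, and 1 read was worth 0.0637 to 0.0892 CPM. No pair of libraries of a group was alike within counting noise (lowest chi-square 9040 on 459 degrees of freedom).

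KO was compared with EV over the whole table by edgeR 4.0.16 in R 4.3.3 (TMM, filterByExpr with minimum count 10 and total 15, two-sided quasi-likelihood test, Benjamini-Hochberg at 0.05, no replicate block). limma 3.58.1 tested the arm ratios with a pseudocount of 0.5, and DESeq2 1.42.0 was an alternative. The edgeR and limma steps were run on simulated counts, which had a fixed dispersion and no differences in composition between libraries of a group. The real libraries do differ in composition, so that run does not show how the steps perform here. The rule for named microRNAs took every member, the 5 most alike in pattern, the neighbours in level, and up to 3 called members of each list or its most abundant member where none was called (miR-34b-5p, miR-34c-5p and miR-107-3p were named after their values were seen). Members and lists were chosen with earlier results of these data known.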

Additional observations from a re-analysis of the deposited data

How the results depend on the processing

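All 4 tested members had log2 changes above 0 in every setting that could be fitted, from 0.09 to 0.29 for miR-26a-5p and from 0.09 to 0.30 for miR-26b-5p, 0.12 to 0.43 for miR-26a-2-3p and 0.23 to 0.65 for miR-26b-3p. The number of called members was 0 in 16 of 17 other settings and 1, miR-26a-5p, with DESeq2 and a local trend. That setting, leaving out EV 3 and KO 2 together, and library sizes without miR-21a-5p were chosen after seeing the data, as were all settings for the lists. The count over all microRNAs was 35 as reported, 5 with library size alone, 56 with no filter, 88 without EV 3 and KO 2, 69 with DESeq2 and a local trend, and 15 to 59 with 1 library left out. With library size alone 1 G1/S-restraining and 0 Ezh2-repressing microRNAs were called. The replicate block gave 34 calls, 0 of them miR-26. Same-numbered libraries did not deviate together (correlations 0.259, -0.115 and -0.247). The highest correlation was that of EV 3 with KO 2, at 0.451, and EV 1 correlated best with KO 3, at 0.349. Signs near 0 turned for the arm ratios of miR-26a-2 (-0.15 to 0.084 with 1 library left out, 0.034 without EV 3 and KO 2) and miR-26b (-0.37 to 0.10 with 1 left out), for miR-26b-5p over miR-26a-5p (-0.036 to 0.067 with 1 left out, -0.015 without EV 3 and KO 2), and for miR-103-3p (-0.113 to 0.087 with 1 left out, 0.113 without EV 3 and KO 2, 0.00294 with at least 10 CPM in 3 libraries). The 3p arms, and with them the arm ratios, gave no value at 10 CPM. The causes were not tested. The 3p arms are limited by depth, at 2 to 107 reads a library.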
